A study of Homo sapiens with 4 samples.

Results

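MHC class I molecules display peptides from proteins made inside the cell on its surface, where CD8 T cells and natural killer cells read them. The 9 genes described here follow that route: the heavy chain genes HLA-B, HLA-C, HLA-E and HLA-F, the light chain gene B2M, the peptide transporter genes TAP1 and TAP2, the immunoproteasome subunit gene PSMB8, and NLRC5, whose protein drives transcription of class I genes. They were taken by symbol from 57820 gene IDs listed in the complete files. The file of GADD45g induced 1, as used here, ends after 27332 IDs, so HLA-B was described from 3 libraries and the other 8 genes from 4.

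All libraries were made from MOLM-13, a human cell line established from acute myeloid leukaemia. In GADD45g induced cells, overexpression of GADD45G, whose protein is induced by stress, was switched on with doxycycline for 4 days, at a labelled dose of 1 mg/ml. Untreated control cells had received none. Each group held 2 libraries from separate biological replicate experiments. Doxycycline and the expressed gene differ together between the groups and cannot be told apart, and the sources do not say whether the cells were a single clone.

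In the usual order of events, proteasomes cut proteins into peptides, and immunoproteasomes carry PSMB8 in place of the standard subunit PSMB5. The TAP1 and TAP2 proteins form the channel that carries peptides into the endoplasmic reticulum. There a heavy chain folds with the light chain and receives its peptide. Interferon raises most of these genes together, through IRF sites and through NLRC5 at a shared promoter module of X and Y boxes.

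That module can be read in the RefSeq promoter sequences (GRCh38.p14), which held 7 of the 9 genes. The windows are shown so that the motifs of the genes that fell, rose or did not pass can be set side by side. They run from 200 to 41 bases before the start of HLA-B (chr6:31357220-31357379, minus strand), HLA-C (chr6:31272133-31272292, minus strand), HLA-F (chr6:29723234-29723393, plus strand) and B2M (chr15:44711317-44711476, plus strand). Those of TAP1 (chr6:32853705-32853854), TAP2 (chr6:32838740-32838889) and PSMB8 (chr6:32844680-32844829), all on the minus strand, cover the last 150 bases before the start. All are printed 5′ to 3′ on the strand of the gene. Capitals mark matches, on either strand, to an IRF motif (GAA or GAAA, any 2 bases, then GAAA), the core of the X2 box (TGACG), the core of the Y box (CCAAT) and a kappa B motif (GGG, any 2 bases, TT, any base, CC). Matches that overlap form a longer run of capitals.
HLA-B: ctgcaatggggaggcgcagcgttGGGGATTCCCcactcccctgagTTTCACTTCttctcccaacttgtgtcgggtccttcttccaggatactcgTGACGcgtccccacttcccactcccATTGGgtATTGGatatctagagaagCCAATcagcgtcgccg
HLA-C: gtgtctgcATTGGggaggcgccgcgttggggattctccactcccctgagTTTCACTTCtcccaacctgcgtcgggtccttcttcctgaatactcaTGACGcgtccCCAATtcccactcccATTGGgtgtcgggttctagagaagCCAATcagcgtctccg
HLA-F: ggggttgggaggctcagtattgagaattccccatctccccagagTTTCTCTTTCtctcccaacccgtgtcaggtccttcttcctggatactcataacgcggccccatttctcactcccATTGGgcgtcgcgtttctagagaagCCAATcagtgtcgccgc
B2M: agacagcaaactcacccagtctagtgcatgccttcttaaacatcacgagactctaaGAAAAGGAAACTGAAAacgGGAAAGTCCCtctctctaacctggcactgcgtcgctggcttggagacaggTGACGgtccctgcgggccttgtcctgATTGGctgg
TAP1: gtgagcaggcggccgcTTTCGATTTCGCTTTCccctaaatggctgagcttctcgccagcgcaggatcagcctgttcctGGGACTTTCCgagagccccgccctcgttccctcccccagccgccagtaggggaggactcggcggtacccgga
TAP2: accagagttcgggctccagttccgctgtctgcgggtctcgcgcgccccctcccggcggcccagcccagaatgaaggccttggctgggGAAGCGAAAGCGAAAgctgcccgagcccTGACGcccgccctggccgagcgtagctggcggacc
PSMB8: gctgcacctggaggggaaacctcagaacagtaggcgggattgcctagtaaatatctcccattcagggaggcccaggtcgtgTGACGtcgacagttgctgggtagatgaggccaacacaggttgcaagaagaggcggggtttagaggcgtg

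Over the 250 bases before the start, HLA-B, HLA-C and B2M each held an IRF motif, TGACG and CCAAT. All 3 were held by 0.533% of the 35116 RefSeq promoters. Alone, the IRF motif was found in 9.08% of promoters, TGACG in 21.2%, CCAAT in 32% and the kappa B motif in 5.07%. HLA-F held the IRF motif and CCAAT without TGACG. TAP1 held the IRF motif, CCAAT and the kappa B motif, and TAP2 the IRF motif and TGACG. The kappa B motif was also held by HLA-B and B2M, and not by HLA-C, HLA-F or TAP2. PSMB8 held only TGACG among these motifs. The second start listed for TAP1 and for PSMB8 held none of them. A match is a stretch of letters and does not show that a factor binds there.

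Depth recovered from the values was 18895470 and 15968886 reads in GADD45g induced 1 and 2, against 18778791 and 15683931 reads in untreated control 1 and 2. Levels are given in RPKM, that is, relative to gene length and to the depth of the library. A log2 change is a difference of log2(RPKM + 1), so low genes appear to change less than they do. GADD45G itself stood at 3236 and 2118 RPKM in GADD45g induced libraries, against 10.5 and 0.289 RPKM in untreated controls. Across 10762 tested genes the median log2 change was -0.21. limma called 1315 genes higher and 2871 lower at an adjusted p under 0.05, which became 1876 and 2046 once that median was moved to 0. Of the myeloid markers, PTPRC, LYZ, CD33, ITGAM, HOXA9 and MEIS1 were present. The others were low: MPO was at most 0.278 RPKM, FLT3 1.19 RPKM, CD14 1.49 RPKM and CSF1R 1.51 RPKM. The 10 myeloid markers summed to 364 and 340 RPKM in GADD45g induced libraries against 1281 and 960 RPKM in untreated controls, mostly LYZ. The other myeloid markers moved both ways or were too low for a test. CD33 (log2 change -0.53), HOXA9 (-0.43), MEIS1 (-0.41) and CSF1R (0.03) did not pass. ITGAM rose (log2 change 0.79, limma adjusted p = 0.0267), a call lost without either GADD45g induced library or untreated control 1. PTPRC did not pass (0.37). CD14 was 2.60-fold higher and FLT3 16.1-fold lower after induction, both at low levels and without a test. FLT3 stood at 0.0889 and 0.0451 RPKM in GADD45g induced libraries against 0.958 and 1.19 RPKM in untreated controls. The part of these shifts in the results was not tested.

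Markers of other cells set both replicate 1 libraries apart. The 6 epithelial markers summed to 39.6 and 0.111 RPKM in GADD45g induced 1 and 2, and to 40.2 and 0.125 RPKM in untreated control 1 and 2. KRT19 and EPCAM were at 0 in GADD45g induced 2 and untreated control 2. The signal was balanced between the groups, and values within the libraries that share a suffix are given beside the results. T cell markers reached at most 0.228 RPKM in any library, and 2 of 3 erythroid markers were at 0 in every library. The 6 fibroblast markers summed to 6.89 and 6.44 RPKM in GADD45g induced libraries against 4.14 and 3.35 RPKM in untreated controls, mostly FAP and TAGLN, and the part of such RNA in the results was not tested.

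PSMB8 and NLRC5 fell after induction, and TAP1 rose. HLA-C, HLA-E, B2M and TAP2 did not pass the test over 4 libraries, nor did HLA-B over 3, and HLA-F was too low for it. Of the 7 genes tested in 4 libraries 3 were called, where 38.9% of all tested genes were, so a count of this size is near the background. The call of 1 as higher stands beside 12.2% of all tested genes, and that of 2 as lower beside 26.7%. Their median log2 change was 0.14, against -0.21 over all tested genes. For 6 of the 7 the induced and control libraries were fully separate, 3 higher and 3 lower after induction. The same held for 70.0% of all tested genes, 24.1% higher and 45.8% lower. With no filter on low values none of the 3 calls held (limma, adjusted p = 0.0725 for PSMB8, 0.108 for NLRC5 and 0.0884 for TAP1), and TAP1 was also not called when genes missing from the short file were kept (0.0764).

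**Figure D1:**
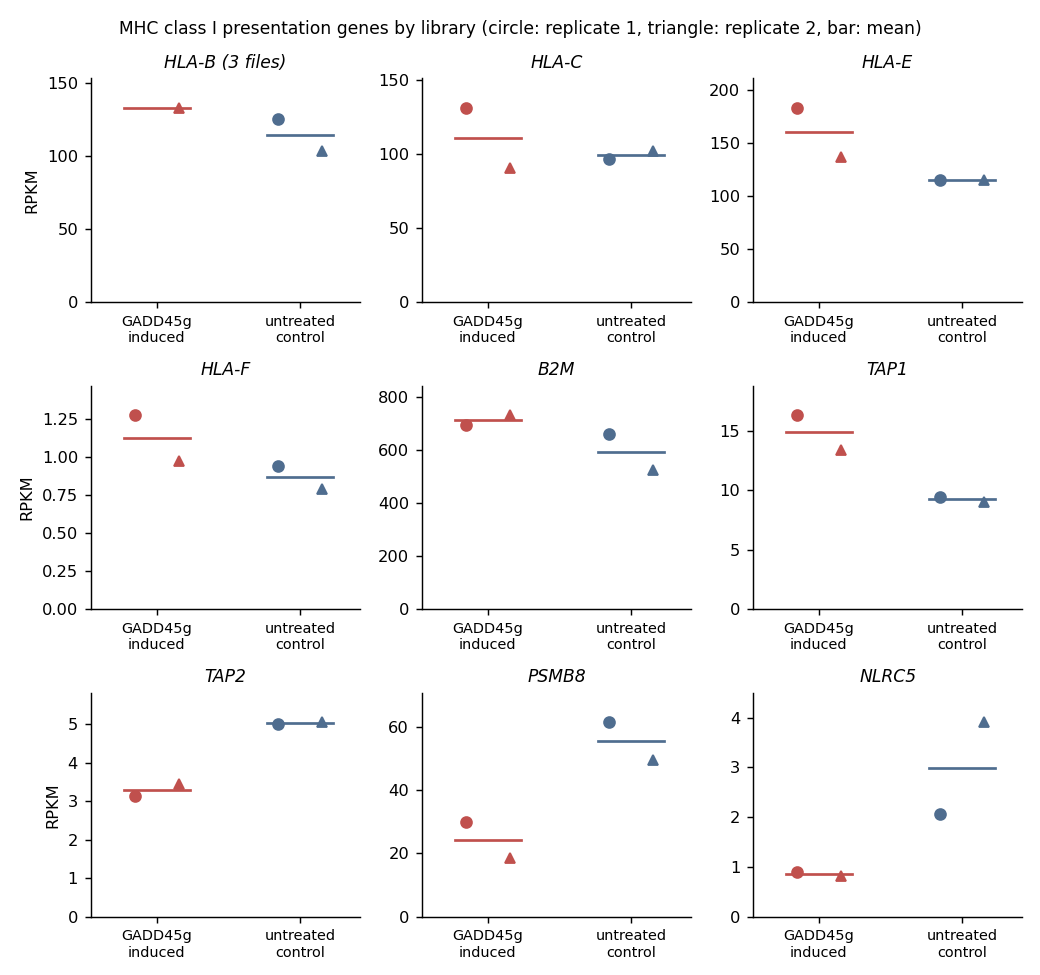
RPKM of the 9 genes in each library (vertical axis from 0, GADD45g induced left, untreated control right; circles are replicate 1, triangles replicate 2, bars the group mean). PSMB8, NLRC5 and TAP2 lie lower in induced libraries and TAP1 higher, while HLA-C overlaps between the groups.

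PSMB8, the catalytic subunit that gives immunoproteasomes one of their altered cutting sites, fell after induction. It stood at 29.8 and 18.7 RPKM in GADD45g induced libraries, against 61.5 and 49.5 RPKM in untreated controls. Every induced value lay below every control value, and the induced libraries differed from each other more than counting error allows (95% Poisson intervals 28.1 to 31.6 and 17.2 to 20.3 RPKM). The means were 24.3 ± 7.88 and 55.5 ± 8.50 RPKM (SD, n = 2 each), 2.29-fold lower after induction. On the log2 scale this came to -1.19 ± 0.27 (SE; limma, adjusted p = 0.00581). It was not called without GADD45g induced 2 (adjusted p = 0.0621) or without untreated control 1 (0.0617). Only 11.4% of tested genes had a lower change. Within the libraries that share a suffix the log2 differences were -1.02 for replicate 1 and -1.36 for replicate 2.

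PSMB8 overlaps an antisense gene, PSMB8-AS1, in 20.6% of its exonic bases in GENCODE 29, and PSMB9 in 4.64%. TAP1 overlaps PSMB8-AS1 in 9.49%. Whether the counting used strand is not stated, so reads of overlapping genes cannot be told apart. PSMB8-AS1 stood at 9.90 and 9.24 RPKM in GADD45g induced libraries, against 11.2 and 8.11 RPKM in untreated controls. The groups overlap for the antisense gene, and the part of overlapping reads in the PSMB8 and TAP1 values was not tested.

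A ratio taken within a library does not depend on how the library was scaled, and the standard subunit PSMB5 served for this. PSMB5 was at 18.5 and 14.7 RPKM in GADD45g induced libraries against 20.9 and 16.2 RPKM in untreated controls (log2 change -0.15, limma adjusted p = 0.660). The ratio of PSMB8 to PSMB5 was 1.61 and 1.28 in GADD45g induced libraries, against 2.95 and 3.06 in untreated controls, a log2 difference of -1.07. An exact two-sided permutation test over 2 against 2 libraries gave p = 0.333, the smallest it allows, here and for the 4 other ratios over 4 libraries whose groups did not overlap, among 10 ratios computed. PSMB10, which replaces PSMB7, stood at 2.40 and 2.94 RPKM after induction against 4.25 and 9.94 RPKM in untreated controls. It fell in the test (log2 change -1.05, limma adjusted p = 0.0212), and lost the call after quantile normalization, after moving the median to 0, and without GADD45g induced 1 or untreated control 2. Its ratio to PSMB7 was 0.0466 and 0.0738 after induction against 0.0899 and 0.221 in untreated controls.

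PSMB9, which replaces PSMB6, is missing from the short file. It was at 4.26 RPKM in GADD45g induced 2 against 7.19 and 4.44 RPKM in untreated controls, and its ratio to PSMB6 was 0.146 after induction against 0.180 and 0.116 in untreated controls. The ratio after induction lay between the control values. In the list of immunoproteasome and proteasome activator genes, PSMB10 was the single call among 9 tested, where 38.9% of all tested genes were. The activator subunits PSME1 and PSME2 had log2 changes of -0.27 and -0.25 and did not pass.

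**Figure D2:**
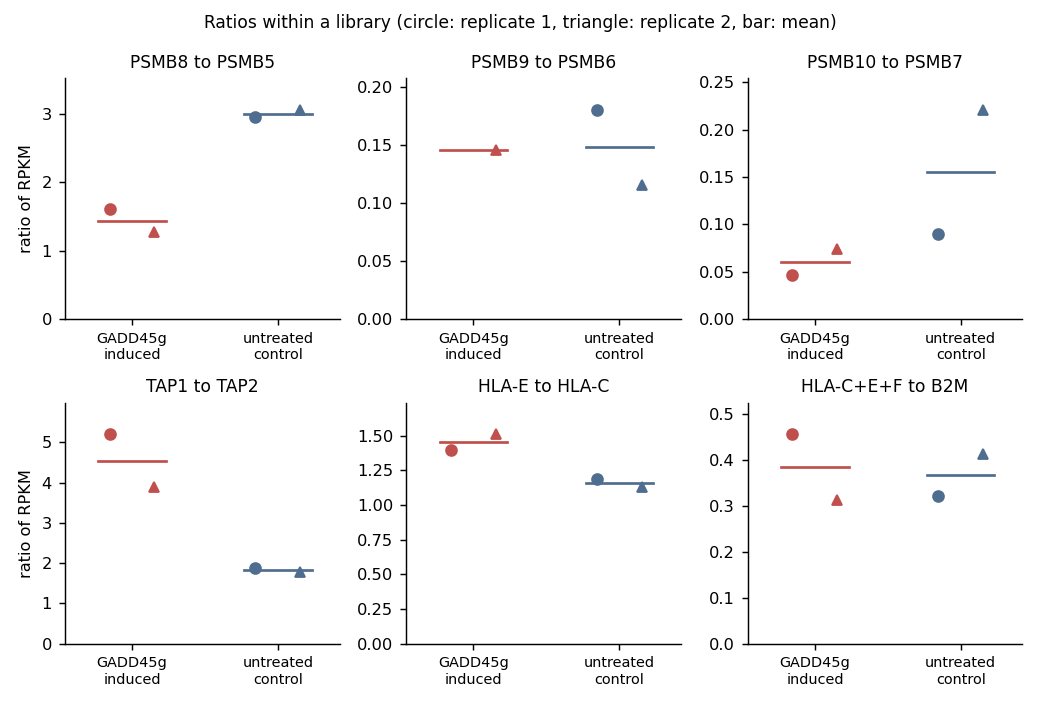
Ratios of RPKM within each library (vertical axis from 0, GADD45g induced left, untreated control right; circles are replicate 1, triangles replicate 2, bars the mean). PSMB8 to PSMB5 and PSMB10 to PSMB7 are lower and TAP1 to TAP2 higher in induced libraries, while the ratio of HLA-C, HLA-E and HLA-F to B2M overlaps.

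NLRC5, a regulator of the NOD-like receptor family that needs the X box factors to act at class I promoters, was low in all libraries. It stood at 0.897 and 0.824 RPKM in GADD45g induced libraries, against 2.06 and 3.91 RPKM in untreated controls. Reads behind these values were 210 and 163 after induction and 480 and 760 in untreated controls. The induced values lay below both controls, and the counting intervals of the controls were apart (95% Poisson intervals 1.88 to 2.26 and 3.64 to 4.20 RPKM). The means were 0.861 ± 0.052 and 2.99 ± 1.31 RPKM (SD, n = 2 each), 3.47-fold lower. The fitted log2 change came to -1.06 ± 0.26 (SE; limma, adjusted p = 0.00791). The call held whichever library was left out (adjusted p = 0.00692 to 0.0494). The log2 change was -1.71 ± 0.34 with voom on the recovered reads (adjusted p = 0.00147), which adds no pseudocount of 1 RPKM. Within the libraries that share a suffix the log2 differences were -0.69 for replicate 1 and -1.43 for replicate 2.

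Other NOD-like receptor genes moved both ways. Of 8 tested, 3 fell and 2 rose, beside 26.7% and 12.2% of all tested genes. NLRC3, a negative regulator of innate signalling, stood at 0.511 and 0.623 RPKM after induction against 1.60 and 2.72 RPKM in untreated controls (log2 change -0.99, limma adjusted p = 0.00810; not called without GADD45g induced 1). NLRC4 was 2.32-fold lower and NOD1 2.35-fold lower, the call of NOD1 being lost after quantile normalization and without GADD45g induced 1 or untreated control 2. NLRP1 stood at 5.89 and 6.92 RPKM after induction against 1.39 and 1.94 RPKM in untreated controls, a 3.85-fold difference (limma adjusted p = 0.000488). NLRP12 was 2.21-fold higher, a call lost without GADD45g induced 1, GADD45g induced 2 or untreated control 1. The class II transactivator CIITA, the closest functional relative of NLRC5, was at 0.440 and 0.604 RPKM after induction against 0.960 and 1.59 RPKM in untreated controls, under the filter on low values and so without a test in 4 libraries. Of 3 MHC class II genes tested 1 fell and 1 rose, beside the same shares of all tested genes. CD74, the class II chaperone, fell to 2.78 and 3.93 RPKM after induction, against 20.6 and 24.9 RPKM in untreated controls. HLA-DMA, a subunit of the class II peptide exchanger, rose to 9.54 and 9.02 RPKM after induction, against 5.34 and 5.99 RPKM in untreated controls (limma adjusted p = 0.0381; the call was lost whichever library was left out). HLA-DRB1 was at 31.8 and 17.9 RPKM after induction against 16.2 and 13.0 RPKM in untreated controls and did not pass (adjusted p = 0.0798).

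Some of the factors that act with NLRC5 at the X and Y boxes fell, where 26.7% of all tested genes did. RFX5, an X box binding subunit, stood at 8.14 and 8.14 RPKM in GADD45g induced libraries against 17.9 and 19.0 RPKM in untreated controls (log2 change -1.09, limma adjusted p = 0.00247). RFXAP, its partner, stood at 2.23 and 1.87 RPKM after induction against 7.09 and 4.34 RPKM in untreated controls (adjusted p = 0.00484). NFYB, a subunit of the CCAAT-binding factor, stood at 3.01 and 3.40 RPKM after induction against 8.91 and 6.82 RPKM in untreated controls (adjusted p = 0.00336). These 3 calls held whichever library was left out and under the 3 other scalings. ATF1 (log2 change -0.77, limma adjusted p = 0.0357) lost its call under all 3 scalings and without GADD45g induced 1, GADD45g induced 2 or untreated control 1. The third subunit RFXANK (log2 change -0.21) and NFYA (-0.04), NFYC (-0.21) and CREB1 (-0.25) did not pass.

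Of the 15 class I promoter factors tested 4 fell, RELA rose and 10 did not pass. Among all tested genes 26.7% fell and 12.2% rose, so a count of this size is near the background. The list median log2 change of -0.21 was the same as that of all tested genes. RELA, the NF-kB subunit that binds kappa B motifs, stood at 16.8 and 14.5 RPKM after induction against 9.79 and 9.34 RPKM in untreated controls (limma adjusted p = 0.0362; the call was lost whichever library was left out). IRF1, which binds the IRF motif, was at 6.47 and 7.18 RPKM after induction against 2.94 and 5.23 RPKM in untreated controls and did not pass (adjusted p = 0.0626).

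TAP1 rose, and TAP2, its partner in the channel, did not pass the test. TAP1 stood at 16.3 and 13.4 RPKM in GADD45g induced libraries, against 9.44 and 9.02 RPKM in untreated controls. Both induced values lay above both controls, and the controls agree within counting error (95% Poisson intervals 8.82 to 10.1 and 8.35 to 9.73 RPKM). The means were 14.9 ± 2.08 and 9.23 ± 0.30 RPKM (SD, n = 2 each), 1.61-fold higher. On the log2 scale TAP1 rose by 0.63 ± 0.22 (SE; limma, adjusted p = 0.0454), more than 86.8% of tested genes. The call was lost when any 1 library was left out (adjusted p = 0.0856 to 0.270). Within the libraries that share a suffix the log2 differences were 0.73 for replicate 1 and 0.52 for replicate 2.

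TAP2 stood at 3.14 and 3.45 RPKM in GADD45g induced libraries, against 5.01 and 5.05 RPKM in untreated controls. The groups did not overlap, with means of 3.30 ± 0.22 and 5.03 ± 0.03 RPKM (SD, n = 2 each), but the difference did not pass (log2 change -0.49 ± 0.21, SE; limma, adjusted p = 0.0877), also under every other setting run. Its log2 differences by suffix were -0.54 for replicate 1 and -0.44 for replicate 2. The ratio of TAP1 to TAP2 was 5.20 and 3.88 after induction against 1.88 and 1.79 in untreated controls, a log2 difference of 1.29. The ratio of TAP1 to PSMB8 was 0.547 and 0.716 after induction against 0.153 and 0.182 in untreated controls. TAP1, TAP2, PSMB8 and PSMB9 are neighbours in the class II region of chromosome 6.

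No heavy chain gene passed the test, and neither did B2M, the most abundant of the 9 genes. B2M, the invariant light chain of all class I molecules, stood at 694 and 733 RPKM in GADD45g induced libraries, against 662 and 527 RPKM in untreated controls. Both induced values lay above both controls, with means of 714 ± 27.9 and 594 ± 95.2 RPKM (SD, n = 2 each). The log2 change of 0.27 ± 0.27 (SE) did not pass (limma, adjusted p = 0.464), and was 0.108 without untreated control 2 and 0.436 without untreated control 1. Within the libraries that share a suffix the log2 differences were 0.07 for replicate 1 and 0.48 for replicate 2. B2M ranked 27 among 19204 protein-coding symbols in GADD45g induced 2 and 30 and 38 in untreated controls.

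HLA-E, a non-classical heavy chain that presents leader peptides of other class I chains to the NKG2A receptor, stood at 184 and 137 RPKM in GADD45g induced libraries, against 115 and 115 RPKM in untreated controls. The induced values lay above the controls by 1.39-fold on average. The log2 change was 0.46 ± 0.26 (SE), which did not pass (limma, adjusted p = 0.185). HLA-F, the other non-classical chain, was low, at 1.28 and 0.976 RPKM in GADD45g induced libraries against 0.943 and 0.789 RPKM in untreated controls. Its mean of 0.996 RPKM over the libraries fell just under the filter of 1 RPKM, and with voom on the recovered reads its log2 change was 0.37 ± 0.38 (SE; adjusted p = 0.484). Its log2 differences by suffix were 0.23 for replicate 1 and 0.14 for replicate 2. HLA-F-AS1, an antisense gene that overlaps 12.3% of its exonic bases in GENCODE 29, stood at 1.51 and 1.21 RPKM after induction against 1.11 and 0.915 RPKM in untreated controls.

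HLA-C, a classical heavy chain and ligand of KIR receptors, showed no shared direction. It stood at 131 and 91.0 RPKM in GADD45g induced libraries, against 96.9 and 102 RPKM in untreated controls. GADD45g induced 1 was the highest library and GADD45g induced 2 the lowest. The log2 change was 0.14 ± 0.27 (SE; limma, adjusted p = 0.721), and -0.13 without GADD45g induced 1. The differences within the libraries that share a suffix were 0.44 for replicate 1, where the epithelial markers were present, and -0.17 for replicate 2. HLA-E too was higher in GADD45g induced 1 than in GADD45g induced 2, and its differences were 0.67 for replicate 1 and 0.25 for replicate 2, and the part of the epithelial RNA in this was not tested.

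HLA-B, the other classical chain, stood at 133 RPKM in GADD45g induced 2, against 125 and 104 RPKM in untreated controls, a log2 difference of 0.36 for replicate 2. Fitted over the 3 complete libraries, in which the lone induced library is assumed to vary like the controls, its log2 change was 0.22 ± 0.32 (SE; limma over 14177 genes, adjusted p = 0.678). In that fit PSMB8 was the single call among 8 of the 9 genes (log2 change -1.51, adjusted p = 0.0243), where 14.0% of all tested genes were called, 4.28% higher and 9.74% lower. NLRC5 (-1.09, adjusted p = 0.135) and TAP1 (0.49, adjusted p = 0.317) were not called there, but NLRC5 was with voom on the recovered reads (-1.78, adjusted p = 0.00283). The ratio of the 4 summed heavy chains to B2M was 0.494 in GADD45g induced 2 against 0.511 and 0.611 in untreated controls (exact permutation test, two-sided, p = 0.667, smallest possible 0.333). Over all 4 libraries the ratio of HLA-C, HLA-E and HLA-F to B2M was 0.456 and 0.313 after induction against 0.322 and 0.414 in untreated controls, and the groups overlapped.

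Class I genes are highly polymorphic and alike in sequence, and the build named for processing is hg19, not the alleles of the line, so their levels are uncertain. Of the 50-base stretches in the GENCODE 29 transcripts of HLA-C, 5.38% occur unchanged in another HLA gene, against 3.94% for HLA-E, 2.72% for HLA-B and 0.521% for HLA-F. HLA-B also overlaps an antisense gene, AL671883.2, in 17.8% of its exonic bases, at 2.65 RPKM in GADD45g induced 2 against 2.79 and 3.60 RPKM in untreated controls. The class I pseudogene HLA-J rose to 7.09 and 5.37 RPKM after induction, against 2.15 and 3.59 RPKM in untreated controls (limma adjusted p = 0.0141; not called without GADD45g induced 1 or untreated control 1). HLA-G, a class I gene of the placenta, was at most 0.0710 RPKM.

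**Figure D3:**
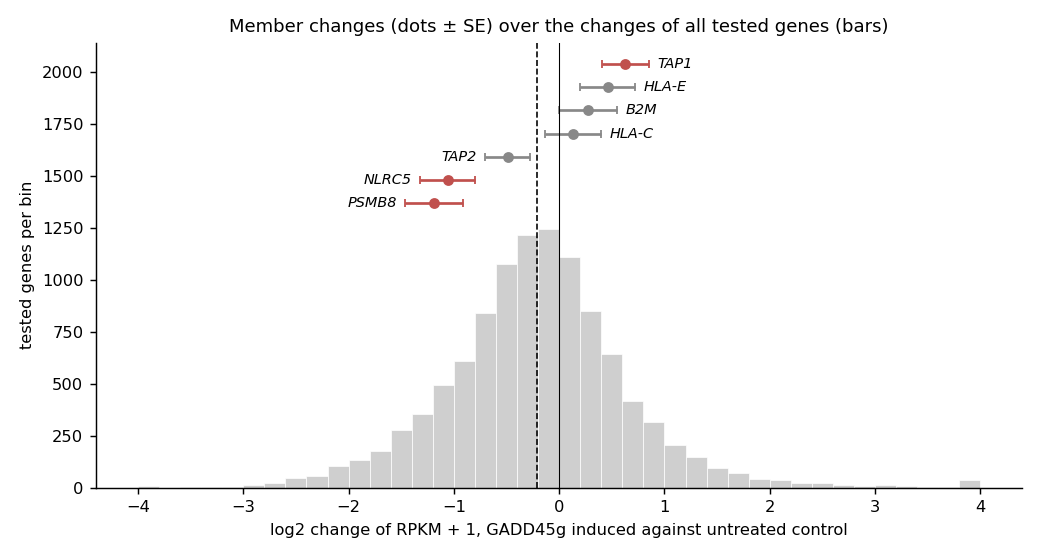
Log2 change of 7 of the genes in the comparison of 4 libraries (dots with SE bars; red where the adjusted p was under 0.05, grey otherwise; their height has no meaning) above a histogram of the changes of all 10762 tested genes (vertical axis, genes per bin; the end bins also hold genes beyond -4 or 4). PSMB8 and NLRC5 lie below and TAP1 above the dashed median of -0.21, all within the spread of tested genes. Of these, 11.4% had a lower change than PSMB8, 14.3% than NLRC5 and 86.8% than TAP1.

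By mean level, the order was B2M, HLA-E, HLA-B, HLA-C, PSMB8, TAP1 and TAP2 in both groups. HLA-F and NLRC5 followed in GADD45g induced libraries, with 1.13 ± 0.21 and 0.861 ± 0.052 RPKM, whereas NLRC5 lay above HLA-F in untreated controls, with 2.99 ± 1.31 and 0.866 ± 0.109 RPKM (SD, n = 2 each). In untreated controls HLA-E and HLA-B overlapped, and the mean of HLA-C (99.5 ± 3.70 RPKM) lay within 1 SD of that of HLA-B (114 ± 15.1 RPKM). Between the other neighbours in the controls the library values did not overlap. After induction HLA-B has a value in GADD45g induced 2 alone (133 RPKM), where HLA-E stood at 137 RPKM.

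Profiles across libraries were compared by the Euclidean distance of centred log2 values over 10032 protein-coding genes. With 4 libraries many genes lie close to any profile, so these names are a description. Nearest to NLRC5 were DNMT1 (distance 0.0874), SETMAR and WDR81, and nearest to PSMB8 were CAPG (0.0748), PMVK and REEP4. TAP1 lay nearest to ANKZF1 (0.0179), RELA (0.0584) and INPP5K, and TAP2 nearest to KIF2A (0.0298), USP7 and LIMA1. HLA-E lay nearest to MATCAP1 (0.0429), SLC39A1 and VPS16, HLA-C to MIGA2 (0.0183), ZNF672 and C7orf50, and B2M to SERPINB8 (0.0329), LEPR and CDK19. HLA-F lay nearest to MUL1 (0.0283), GCC1 and AJUBA, and HLA-B, over 3 libraries, to GPCPD1 (0.00544), SPATA1 and KIAA0232. Among the 9 genes themselves the nearest to PSMB8 was NLRC5, at 0.824, and the nearest to TAP1 was HLA-E, at 0.201.

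Peptide is loaded onto class I molecules by chaperones of the endoplasmic reticulum. Genes of loading and trimming had a median log2 change of -0.48, against -0.21 for all tested genes. Of 11 tested, CALR alone fell, where 26.7% of all tested genes did. This count depends on the setting: 0 fell and 1 rose after upper quartile scaling or after moving the median to 0, while 4 fell without the trend or with voom on the recovered reads, and 5 fell with the robust prior, the replicate block or a filter of 5 RPKM. With no filter 0 were called. CALR, which encodes calreticulin, stood at 252 and 199 RPKM after induction against 411 and 409 RPKM in untreated controls (limma adjusted p = 0.0235; not called after upper quartile scaling, after moving the median to 0, or without GADD45g induced 2 or either untreated control). PDIA3 (-0.70, adjusted p = 0.0511), HSPA5 (-0.66, 0.0516) and CANX (-0.67, 0.0543) had changes of like size that did not pass. TAPBP, which encodes tapasin, the bridge between TAP and the heavy chain, was at 34.2 RPKM in GADD45g induced 2, between the levels in the untreated controls. The trimming enzyme genes ERAP1 (-0.48) and ERAP2 (0.08) did not pass. A further list joined cytosolic peptidase genes with genes of cross-presentation (the SEC61 genes and CYBB). Of its 9 tested genes 3 fell and 0 rose, where 26.7% of all tested genes fell and 12.2% rose. Those that fell were THOP1 (-1.35), which destroys peptides, LAP3 (-1.18), an aminopeptidase, and CYBB (-2.53), an oxidase subunit in phagosomes.

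Factors that remove class I molecules from the surface or silence their genes gave 3 higher and 0 lower calls among 9 tested. Of all tested genes 12.2% were called higher and 26.7% lower, and the list median was 0.20. Other settings gave 1 (no filter) to 4 higher calls, and 1 lower call without untreated control 2. SUSD6, which with TMEM127 and the ligase WWP2 sends class I molecules to lysosomes, stood at 15.5 and 16.5 RPKM in GADD45g induced libraries against 4.05 and 4.01 RPKM in untreated controls (log2 change 1.76, limma adjusted p = 0.00012). IRGQ, an autophagy receptor of class I molecules, stood at 7.78 and 11.0 RPKM after induction against 2.43 and 3.84 RPKM in untreated controls (adjusted p = 0.00197). TMEM127 stood at 36.9 and 37.5 RPKM after induction against 20.7 and 24.5 RPKM in untreated controls (adjusted p = 0.0332, lost without GADD45g induced 1, GADD45g induced 2 or untreated control 1). WWP2 (0.20) and the Polycomb genes EZH2 (-0.37), EED (-0.18) and SUZ12 (-0.56) did not pass.

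Class I-like molecules moved both ways, with 2 higher and 3 lower calls among 8 tested, beside 12.2% and 26.7% of all tested genes. ULBP2, a stress ligand of the NKG2D receptor, stood at 9.53 and 6.59 RPKM after induction against 2.96 and 2.27 RPKM in untreated controls (limma adjusted p = 0.00154). PROCR, the protein C receptor, was 2.06-fold higher. CD1D, which presents lipids, stood at 0.846 and 0.556 RPKM after induction against 3.92 and 3.28 RPKM in untreated controls (adjusted p = 0.000578). FCGRT, the neonatal Fc receptor heavy chain that also pairs with B2M, stood at 47.4 and 35.7 RPKM after induction against 82.4 and 81.2 RPKM in untreated controls (adjusted p = 0.00985; not called without GADD45g induced 2). ULBP1 fell by 0.63 on the log2 scale (adjusted p = 0.0409) and lost the call under the 3 other scalings and whichever library was left out. The NKG2D ligand genes MICA and MICB did not pass, with -0.25 and 0.29.

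**Figure D4:**
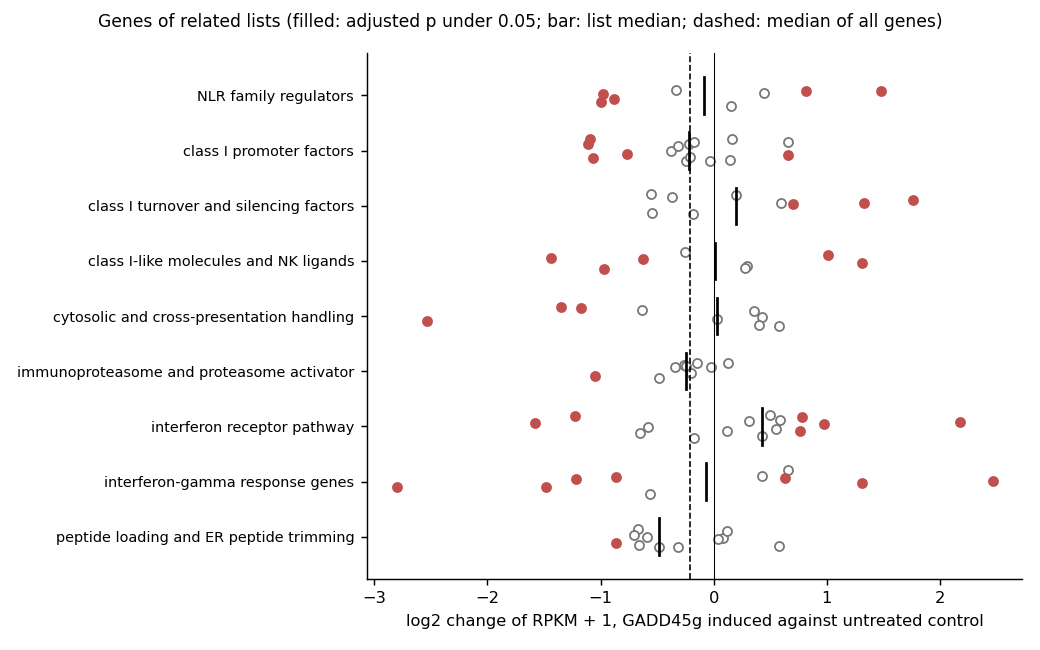
Log2 change of every tested gene in 9 related lists (horizontal axis; 1 row per list; filled where the adjusted p was under 0.05, open otherwise; vertical scatter within a row has no meaning; bars are list medians and the dashed line the median of all tested genes). Factors of class I turnover have filled points on the higher side alone, and loading and proteasome genes have 1 filled point each, on the lower side.

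Genes of the interferon route gave calls in both directions. Of 10 tested interferon-gamma response genes, which include TAP1, 3 rose and 4 fell, beside 12.2% and 26.7% of all tested genes. GBP2, a guanylate-binding protein, stood at 7.53 and 8.31 RPKM in GADD45g induced libraries against 0.636 and 0.589 RPKM in untreated controls (log2 change 2.47, limma adjusted p = 1.66e-05), and GBP5 was 3.02-fold higher. IRF8, a transcription factor, stood at 6.06 and 3.87 RPKM after induction against 44.4 and 35.9 RPKM in untreated controls (adjusted p = 2.31e-05), and WARS1, NMI and TRIM22 fell by 1.22, 1.48 and 0.87 on the log2 scale, the call of TRIM22 being lost after quantile normalization and without GADD45g induced 2. CXCL9, CXCL10, CXCL11 and IDO1 were at most 0.112 RPKM in any library.

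Of 15 tested genes of the interferon receptor pathway 4 rose and 2 fell, where 12.2% and 26.7% of all tested genes did. The list median was 0.43. With other scalings 6 (quantile) or 7 (upper quartile, or the median moved to 0) rose and 2 fell, while 2 rose without GADD45g induced 2. JAK1, the receptor kinase, stood at 43.6 and 49.0 RPKM after induction against 21.6 and 24.4 RPKM in untreated controls (limma adjusted p = 0.00662), and the receptor subunits IFNGR2 and IFNAR2 were 1.74-fold and 1.75-fold higher. The last pair of calls was lost without GADD45g induced 2 or untreated control 2, that of IFNGR2 also without untreated control 1 and that of IFNAR2 also without GADD45g induced 1. SOCS3, a feedback inhibitor, was 10.6-fold higher. USP18, an interferon-stimulated inhibitor of the type I receptor, stood at 0.273 and 0.206 RPKM after induction against 3.15 and 2.31 RPKM in untreated controls (adjusted p = 0.000362), and the phosphatase gene PTPN2 fell by 1.23 on the log2 scale.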

How the data were processed

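The authors deposited RPKM values for each Ensembl gene ID, per the file headers, in a file for each library. Build hg19 and the tools Cuffdiff, Cuffnorm and TopHat stand in the submitters' processing notes, with neither version nor role. Strand and read length are not stated. Genes were paired with symbols through a table of gene names (51996 of 57820 IDs), and rows of 1 symbol were summed. A gene was tested where its mean across the fitted libraries reached 1 RPKM, on log2(RPKM + 1) values without further scaling. limma 3.58.1 (R 4.3.3; lmFit, eBayes with trend) compared GADD45g induced with untreated control, with two-sided tests. P-values were adjusted by Benjamini-Hochberg over the tested genes, with a threshold of 0.05. A second fit used the 3 complete libraries. Libraries were grouped by treatment label and title, and replicates 1 and 2 differ by a suffix in the titles. Alternatives were pseudocounts of 0.1 and 5, no filter or 5 RPKM, upper quartile and quantile scaling, the median change moved to 0, eBayes without trend or with a robust prior, a replicate block, missing values kept, each library left out and, added after seeing the data, voom on the recovered reads. The fit was also run on simulated data, with spreads drawn from its own prior, changes larger than those of the members and no replicate effect. That run checks the code and does not bear on the calls given here.

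For IDs whose gene model is the same in GENCODE 29, low values (up to 20 reads) were multiples of a single read in 100.0% of cases in each library, with a tolerance of 0.01 reads. This gave the depth. A gene's reads follow from the length nearest to that model for which all its values are whole. In a 1 kb gene, 1 read is 0.0529 to 0.0638 RPKM. Intervals cover counting error only.

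Named genes are the 9 members, GADD45G, paired proteasome subunits, up to 4 genes per list with the smallest adjusted p, and for each member the 3 nearest profiles. Other list genes were named after their values were seen, and some genes are not reported here. Members, lists and tests were chosen with earlier results of these data known. No coordinates of hg19 are given. Promoter sequences are from RefSeq (GRCh38.p14).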

Additional observations from a re-analysis of the deposited data

How the results depend on the processing

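With 2 libraries per group the calls depend on single libraries. Over 4 libraries, 3 members were called (4186 genes in all). With no filter on low values 0 members and 2464 genes were called by limma, 4 members having an unadjusted p under 0.05. With 1 library left out, 1 to 2 members and 2777 to 3610 genes were called. Over the 3 complete libraries, 1 member and 1988 genes were called. There, no filter gave 0 members and 0 genes by limma, 1 member having an unadjusted p under 0.05, and voom on the recovered reads, added after seeing the data, gave 2 members and 3485 genes. The cause was not tested. With 1 control left out of those 3 libraries no residual degrees of freedom remain, so only differences were computed. The log2 change of HLA-C was 0.14, and -0.128 to 0.398 with 1 library left out, below 0 without GADD45g induced 1. In the 3 complete libraries it was -0.13, but 0.0693 after moving the median to 0, 0.0284 after quantile normalization and 0.0532 after upper quartile scaling. The other members tested kept their direction under every setting run. With a library left out, the log2 difference of the ratio of PSMB8 to PSMB5 was -1.24 to -0.90 and that of heavy chains to B2M -0.305 to -0.0481. With libraries paired by the suffix in their titles (replicate block) 3 members and 4984 genes were called. What the suffix marks is not stated. Epithelial markers set both replicate 1 libraries apart, and the replicate differences of the groups correlated across genes (r = 0.35). The main fit does not use this pairing. Of 41 genes called in the lists, 34 stayed called under the 3 other scalings, 23 stayed called whichever library was left out, and 0 changed sign.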
